A study of Mus musculus with 6 samples.

Results

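The MARCH family groups membrane ubiquitin ligases that carry a RING-CH finger, and the genes described here are the 10 listed in the count table as March1, March2, March3, March5, March6, March7, March8, March9, March10 and March11. They were taken by name from 26743 genes. March11 was the gene that led to this choice, because it stood 4th by p-value among the genes that were lower without Trf2, and the other 9 came in as its relatives by name. An 11th gene of that name, March4, was not among them. RNA was sequenced from whole testes of 3 WT males and 3 Trf2-/- males, all at postnatal day 21, when the first round spermatids of the first wave are present. Trf2 (Tbpl1 in the table) is a TBP-related transcription factor, and the comparison asks which transcripts depend on it in the testis. The labels name no Cre or promoter that would limit the mutation to a cell type, and the study's methods give a 129/SvPas background for its tagged mice, without naming that of these 6 mice.

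A ubiquitin ligase takes ubiquitin from an E2 enzyme and places it on a chosen protein. In MARCH proteins the RING-CH finger binds the E2, and in most members membrane-spanning segments hold the ligase in a given organelle, where it marks neighbouring membrane proteins for internalisation, lysosomal sorting or proteasomal degradation. In testis, March11 and March10 are known from developing spermatids, where March11 sits in the trans-Golgi network and multivesicular bodies and March10 associates with microtubules.

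The WT libraries held between 21582123 and 29859347 reads on genes, and the Trf2-/- libraries between 15187062 and 24530489. Levels are given as CPM (counts relative to the TMM-scaled library size) and, to compare genes, as CPM per kb of the gene length in the deposited table. A count of 0 allows up to 3 counts, which is 0.105 to 0.144 CPM in WT and 0.119 to 0.190 CPM in Trf2-/- mice, counting error only. The inactivated gene fell from 295 ± 12.5 CPM to 61.0 ± 4.60 CPM (SD, n = 3 mice each). The list of round spermatid markers was written with earlier results of these data known. Of its 11 tested genes 10 were lower, where 20.2% of all tested genes were. Their summed level (12 genes) was 87.6 to 89.4 CPM in WT and 34.7 to 53.0 CPM in Trf2-/- mice. Most of that sum came from Acr, with a WT mean of 56.3 CPM. In whole testis, fewer cells of a type and less RNA per cell cannot be told apart.

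The sequence upstream of the start is shown for the MARCH transcripts that fell most, March11 and March10, beside that of a close relative of each that did not pass the test, March9 and March7. Each run is the 250 bases before the start of the annotated transcript with the longest coding sequence, read from NCBIM37 on the gene's own strand, and capitals mark every CG dinucleotide. The March11 window is chr15:26238569-26238818 on the plus strand, that of March9 chr10:126497241-126497490 on the minus strand, that of March10 chr11:105316609-105316858 on the minus strand and that of March7 chr2:60047694-60047943 on the plus strand.
March11: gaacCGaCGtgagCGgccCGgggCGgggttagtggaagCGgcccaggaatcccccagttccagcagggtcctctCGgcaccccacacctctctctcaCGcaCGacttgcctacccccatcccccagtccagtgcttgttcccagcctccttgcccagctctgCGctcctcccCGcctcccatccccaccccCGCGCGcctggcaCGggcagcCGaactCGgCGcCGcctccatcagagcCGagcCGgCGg
March9: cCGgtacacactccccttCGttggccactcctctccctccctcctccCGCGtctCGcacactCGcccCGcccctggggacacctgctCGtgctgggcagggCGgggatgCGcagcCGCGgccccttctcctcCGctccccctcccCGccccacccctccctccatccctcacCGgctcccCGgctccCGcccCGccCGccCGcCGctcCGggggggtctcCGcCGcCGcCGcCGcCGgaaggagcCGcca
March10: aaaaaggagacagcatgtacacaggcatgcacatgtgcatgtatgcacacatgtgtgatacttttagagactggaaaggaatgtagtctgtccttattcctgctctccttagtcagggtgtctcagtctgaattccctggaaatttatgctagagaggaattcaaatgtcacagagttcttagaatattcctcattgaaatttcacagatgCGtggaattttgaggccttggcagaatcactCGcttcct
March7: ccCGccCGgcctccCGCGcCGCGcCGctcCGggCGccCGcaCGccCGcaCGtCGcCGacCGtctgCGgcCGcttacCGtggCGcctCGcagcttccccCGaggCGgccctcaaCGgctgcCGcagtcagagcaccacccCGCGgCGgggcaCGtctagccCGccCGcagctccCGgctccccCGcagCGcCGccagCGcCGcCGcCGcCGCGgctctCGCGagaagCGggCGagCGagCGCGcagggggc

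The 2 transcripts with the larger decreases started from unlike sequences. The March11 window held 22 CG dinucleotides at 71.2% GC, and that of March10 held 2 at 42.0% GC, where the median over 15140 tested genes was 14 at 58.8% GC. More CG dinucleotides than in March11 were present in March9 (29) and March7 (48). March10 has 4 annotated starts whose windows held 2 to 17 CG dinucleotides, and March11 has 3, with 3 to 22, so the contrast depends on which start is used. The cAMP response element TGACGTCA, its core TGACG (or CGTCA), which lies inside it, and the TATA element TATAAA (or TTTATA) were searched on both strands. None of these letters occurred in the March11, March9, March10 or March7 windows, while all promoters of that length held them in 2.40%, 24.3% and 7.23% of cases. TGACG letters were found at -76 in March6 and, on the other strand, at -18 in March8, and TATAAA letters on the other strand at -153 in March3, counted from the start. These hits cover 1 start per gene. Over all annotated starts, TATAAA letters preceded 3 of 9 in March7, 1 each in March3, March5, March6 and March8, and 0 in March11, March9 and March10.

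In WT testis the family was led by the spermatid members. March11 had the highest level, 89.4 ± 1.94 CPM per kb (SD, n = 3), above 96.2% of tested genes. March10 followed with 73.1 ± 0.77 CPM per kb, and every WT value of March11 lay above every WT value of March10. The next members were March6, the ligase of the endoplasmic reticulum, with 34.4 ± 1.28 CPM per kb and March5, the ligase of the mitochondrial outer membrane, with 30.1 ± 1.19 CPM per kb. A middle tier held March7 (18.7 ± 1.06 CPM per kb), March8 (17.0 ± 0.84 CPM per kb) and March2 (12.3 ± 0.53 CPM per kb). March7 and March8 overlapped between WT mice, and their order is not resolved. March3 (7.85 ± 0.20 CPM per kb) lay near the median of all tested genes, 6.50 CPM per kb. March9 had 2.22 ± 0.12 and March1 0.20 ± 0.03 CPM per kb, and March1 lay above only 3.55% of tested genes.

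The place at the top depended on the length used. The deposited length of March11 is 1558 bases, whereas the union of its annotated exons is 2848 bases, and with the latter March11 came to 48.9 CPM per kb and ranked 2nd behind March10, whose length is the same either way (4249 bases). March3 fell from 7.85 to 2.63 CPM per kb with the exon union (6006 in place of 2011 bases) and kept the 8th place. March4, in the same table, had 0.13 ± 0.06 CPM per kb in WT.

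**Figure D1:**
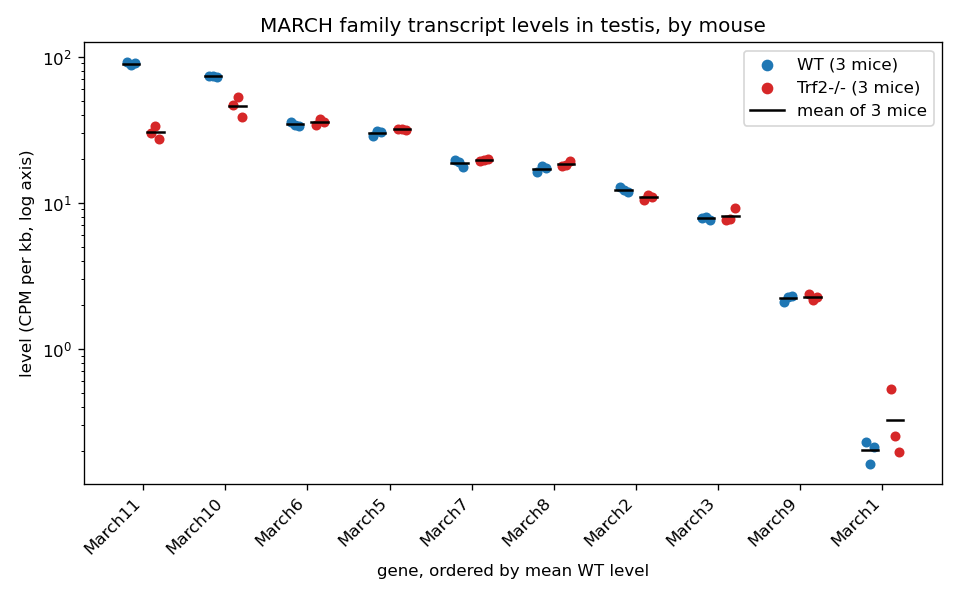
Level of each MARCH transcript in every mouse (CPM per kb, log axis), with genes ordered by mean WT level, points for single mice and black lines for means of 3. March11 and March10 lie well below their WT levels in the Trf2-/- mice, and the other members stay close to theirs apart from a scattered March1.

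In Trf2-/- testis the order by deposited length changed at the top. With the exon union March10 already ranked 1st in WT, so that change depends on the length of March11. The order, sums and shares below use the deposited lengths, and their Trf2-/- values were not computed with the exon union. March10 led with 45.8 ± 7.07 CPM per kb, followed by March6 (35.6 ± 1.59 CPM per kb), March5 (31.8 ± 0.21 CPM per kb) and then March11 (30.3 ± 3.11 CPM per kb), whose values overlapped those of March5. From March7 down to March1 the order was that of WT. The summed level of the 10 members was 288, 286 and 283 CPM per kb in the WT mice and 201, 214 and 195 CPM per kb in the Trf2-/- mice. Without March11 and March10 the sum was 124, 124 and 121 CPM per kb in WT and 124, 128 and 129 CPM per kb in Trf2-/- mice. The lower total of the family therefore lay in those 2 transcripts. March11 made up 31.3 ± 0.65% of the WT sum and 14.9 ± 0.83% of the Trf2-/- sum (SD, n = 3 mice each). March10 made up 25.6 ± 0.24% and 22.5 ± 2.46%.

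**Figure D2:**
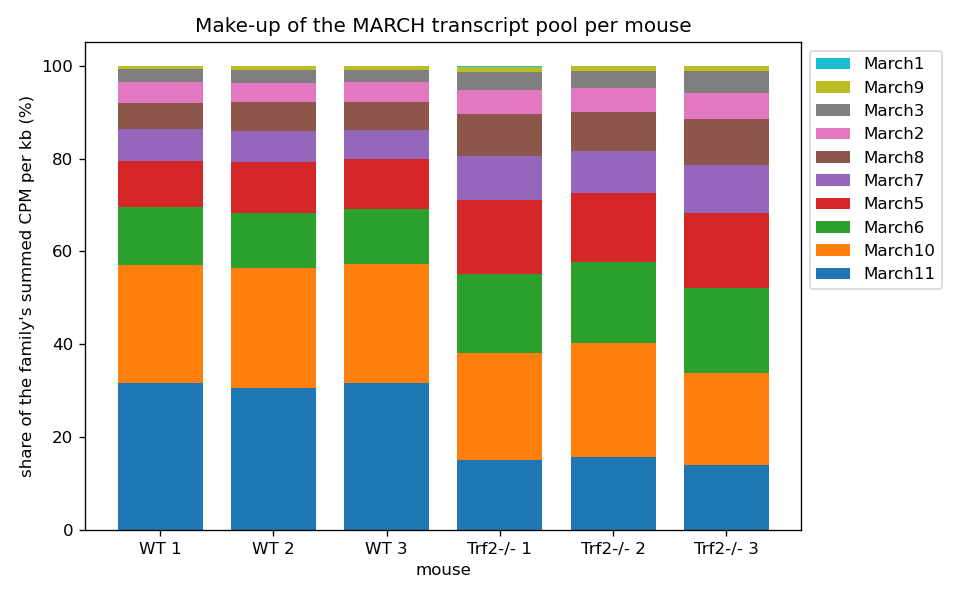
Share of each member in the summed CPM per kb of the 10 MARCH genes, 1 stacked bar per mouse (percent). The March11 segment covers 30.6 to 31.7% in the WT mice and 14.0 to 15.6% in the Trf2-/- mice, and the March6 and March5 segments are wider in the Trf2-/- mice.

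Of the family, 3 genes were lower in Trf2-/- testis by edgeR's quasi-likelihood test at an adjusted p under 0.05, namely March11, March10 and March2. All 10 were tested. Among all 16924 tested genes 20.2% were lower at this threshold and 11.2% higher, and since March11 was chosen from this contrast its values are a description. None of the 10 was higher, neither at an unadjusted p under 0.05 (0 genes) nor by the Wald test of DESeq2 (0 genes). A decrease of at least 2-fold with an adjusted p under 0.05 was met by March11 alone, where 4.3% of tested genes met it and 0.609% met the same rule upwards. The median log2 fold change was 0.05 over the 10 members and 0.04 over all tested genes. All WT values lay above all Trf2-/- values in the same 3 genes (26.8% of tested genes), and all Trf2-/- values above all WT values in March5 and March8 (22.3% of tested genes).

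**Figure D3:**
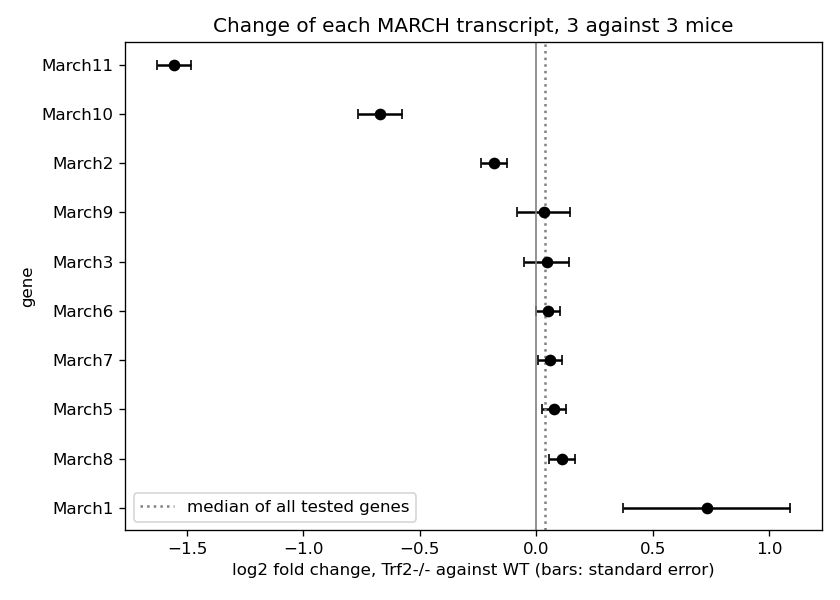
Log2 fold change of each MARCH transcript in Trf2-/- against WT testis (points, with bars for the standard error from edgeR), 3 mice per genotype. March11 (-1.56) and March10 (-0.67) stand to the left, 7 members lie between -0.18 and 0.11, and March1 has a wide bar.

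The March9 and March11 ligases work in the Golgi and the trans-Golgi network, and their proteins, translated from the annotated coding sequences, were 48.9% identical over the shorter one and 82.6% identical in the RING-CH finger. March11 (ENSMUSG00000022269, plus strand of chromosome 15, 26238803 to 26339331) had 142, 136 and 140 CPM in WT mice 1 to 3 and 46.9, 52.1 and 42.5 CPM in Trf2-/- mice 1 to 3. Every WT mouse lay far above every Trf2-/- mouse, and the genotypes did not overlap. Its log2 fold change was -1.56 ± 0.07 (SE), with mean levels 2.94-fold lower in the Trf2-/- mice. By p-value its neighbours among the lower genes were Chrac1 (2nd), Taf6 (3rd), Git1 (5th) and Fbn2 (6th).

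March9 (ENSMUSG00000040502, minus strand of chromosome 10, 126492067 to 126497240), which can remove MHC class I and ICAM-1 from the cell surface, did not follow its relative. It had 6.31, 6.89 and 7.00 CPM in WT and 7.22, 6.56 and 6.83 CPM in Trf2-/- mice, and the genotypes overlapped. The log2 fold change was 0.03 ± 0.11 (SE) and its sign was not stable when single mice were left out. In CPM per kb, March11 exceeded March9 43.9, 38.4 and 38.9 times in the WT mice and 12.7, 15.5 and 12.1 times in the Trf2-/- mice, a ratio taken within each library and so free of the scaling between libraries.

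March10 and March7 differ from the rest of the family by having no hydrophobic stretch long enough to span a membrane, in a scan of 19-residue windows of the translated coding sequences, and by a RING-CH finger near the end of a long protein. The finger pattern lay at residues 639 to 694 of 788 in March10 and 554 to 609 of 693 in March7, and the fingers were 64.3% identical where the whole proteins were 31.5% identical. March10 (ENSMUSG00000078627, minus strand of chromosome 11, 105222112 to 105318049) had 311, 314 and 307 CPM in WT and 197, 224 and 164 CPM in Trf2-/- mice. The WT mice were close together, the Trf2-/- mice were spread and all lower. Its log2 fold change was -0.67 ± 0.10 (SE, adjusted p = 0.00123 by edgeR's quasi-likelihood test), and leaving out single mice moved it between -0.79 and -0.56. Exons of the lincRNA Gm11638 overlap March10 on the opposite strand, and it had at most 1 count in any mouse.

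March7 (ENSMUSG00000026977, plus strand of chromosome 2, 60047944 to 60088733), also called axotrophin, had 204, 197 and 183 CPM in WT and 200, 202 and 207 CPM in Trf2-/- mice. The genotypes overlapped and the log2 fold change was 0.06 ± 0.05 (SE). Within each library March10 exceeded March7 3.71, 3.90 and 4.11 times per kb in WT and 2.41, 2.70 and 1.93 times in Trf2-/- mice. Between the 2 lower genes themselves, March11 was 1.25, 1.18 and 1.24 times March10 per kb of deposited length in WT. In Trf2-/- mice it was 0.65, 0.64 and 0.71 times, so this ratio was lower in every Trf2-/- mouse than in any WT mouse. In WT, whether the ratio lies above or below 1 depends on the length used for March11.

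Spermatocyte and spermatid markers moved beside these 2 transcripts. Of 10 spermatocyte markers 5 were lower (Ldhc, Pgk2, Ccna1, Piwil1 and Hspa2) and 2 higher (Sycp1 and Sycp3, of the synaptonemal complex). Over all tested genes 20.2% were lower and 11.2% higher. Ldhc, the germ cell lactate dehydrogenase and most abundant of them, went from 2279 ± 72.0 to 1407 ± 292 CPM. Acr, the acrosomal protease and most abundant round spermatid marker, had 54.5, 54.7 and 59.7 CPM in WT and 33.5, 36.1 and 23.4 CPM in Trf2-/- mice. Among the Trf2-/- mice Acr was lowest in mouse 3, as were March10 and March11. In log2 fold change Acr (-0.85 ± 0.13 SE) lay between March10 and March11. The 11 tested round spermatid markers ran from -6.77 to -0.22. The lowest value was that of Lyzl6, with 17, 16 and 11 reads in WT and 0 in each Trf2-/- mouse. Their median of -1.89 lay below the value of March11. That median is Catsper3, with 17, 13 and 14 reads in WT and 5, 5 and 0 in Trf2-/- mice. At such counts the size of a fold change is poorly measured, which limits the comparison with March11. The part that cell numbers play in the lower March11 and March10 was not tested.

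The endosomal ligases March2 and March3, whose translated proteins were 64.4% identical, changed little. March2 (ENSMUSG00000079557, minus strand of chromosome 17, 33822637 to 33855615) had 77.3, 73.2 and 71.0 CPM in WT and 62.5, 67.5 and 65.7 CPM in Trf2-/- mice, with no overlap of the genotypes. The log2 fold change was -0.18 ± 0.06 (SE, adjusted p = 0.0373 by edgeR's quasi-likelihood test). The call was lost with library size alone (adjusted p = 0.245 by the same test) and without WT mouse 1 (0.131), WT mouse 2 (0.0969) or Trf2-/- mouse 1 (0.0989). The end of March2 also shares exon sequence on the same strand with Hnrnpm, an RNA-binding protein gene with 269 ± 10.3 CPM in WT and a log2 fold change of -0.16 ± 0.05 (SE). How reads in the shared exons were assigned was not tested.

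March3 (ENSMUSG00000032656, minus strand of chromosome 18, 56921370 to 57085202) had 15.9, 16.1 and 15.4 CPM in WT and 15.2, 15.4 and 18.4 CPM in Trf2-/- mice. The genotypes overlapped, and the log2 fold change of 0.04 ± 0.09 (SE) turned to -0.04 without Trf2-/- mouse 3. Within libraries March2 stood at 1.63, 1.52 and 1.55 times March3 per kb in WT and at 1.38, 1.47 and 1.20 times in Trf2-/- mice.

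March1 and March8 lower MHC class II, CD86 and the transferrin receptor at cell surfaces, March1 mainly in dendritic and B cells and March8 in many tissues. Their translated proteins were 67.8% identical and their fingers 87.2%. March8 (ENSMUSG00000025702, plus strand of chromosome 6, 116288042 to 116359558) had 84.5, 93.2 and 89.8 CPM in WT and 94.0, 94.3 and 101 CPM in Trf2-/- mice. Each Trf2-/- mouse was above each WT mouse, by little, and the log2 fold change of 0.11 ± 0.06 (SE) did not pass the adjusted p (0.154 by edgeR's quasi-likelihood test).

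March1 (ENSMUSG00000036469, plus strand of chromosome 8, 68141799 to 68995536) was counted with only 40, 26 and 27 reads in WT and 81, 36 and 19 reads in Trf2-/- mice, which is 1.39, 0.996 and 1.30 CPM in WT and 3.21, 1.54 and 1.20 CPM in Trf2-/- mice. Mouse 1 of the Trf2-/- group stood apart and mouse 3 lay inside the WT range. The log2 fold change of 0.73 ± 0.36 (SE) had an adjusted p of 0.149 by edgeR's quasi-likelihood test. Without Trf2-/- mouse 1 the log2 fold change was 0.17 (adjusted p = 0.679 by the same test), and without Trf2-/- mouse 3 it was 0.97 (adjusted p = 0.0480 by the same test). Macrophage markers moved in the same mouse, with a sum over 11 genes of 261 to 286 CPM in WT and of 463, 291 and 238 CPM in Trf2-/- mice 1 to 3. Of these 11 genes 5 were higher (Csf1r, Emr1, Lyz2, C1qa and C1qb) and 1 was lower (Fcgr3). Over all tested genes 11.2% were higher and 20.2% lower. With DESeq2 4 of the 11 were higher and 1 lower. The most abundant, Mrc1, had 121, 92.0 and 71.8 CPM in the Trf2-/- mice. Dendritic and B cell markers (9 genes) summed to 38.2 to 41.1 CPM in WT and to 66.8, 43.1 and 45.1 CPM in Trf2-/- mice, with Cd74 higher among those reported here, and Zbtb46, the most abundant of them, at 22.5 ± 1.44 and 23.1 ± 3.21 CPM. The part of these cells in the March1 values was not tested.

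March5, also called MITOL, regulates mitochondrial fusion and division. It (ENSMUSG00000023307, plus strand of chromosome 19, 37282033 to 37296629) had 59.4, 64.1 and 63.1 CPM in WT and 66.1, 65.7 and 65.2 CPM in Trf2-/- mice. All Trf2-/- mice were above all WT mice, while the log2 fold change was only 0.08 ± 0.05 (SE) and did not pass the adjusted p. Its start lies within Cpeb3 on the opposite strand without shared exons, and Cpeb3 had 12.7 ± 0.29 CPM in WT and 12.9 ± 0.48 CPM in Trf2-/- mice.

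March6, also called TEB4, destroys squalene epoxidase and other proteins of the endoplasmic reticulum. It has the most membrane-spanning segments of the family, and the scan found 14 hydrophobic stretches in 909 residues against 2 in March11. March6 (ENSMUSG00000039100, minus strand of chromosome 15, 31385654 to 31460792) had 224, 212 and 209 CPM in WT and 213, 233 and 222 CPM in Trf2-/- mice. The genotypes overlapped and the log2 fold change was 0.05 ± 0.05 (SE).

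March4, the closest relative of March9 in protein sequence (65.8% identical), was hardly counted in testis. Its counts were 23, 7 and 15 in WT and 11, 12 and 7 in Trf2-/- mice, and the genotypes overlapped. Across the family, the scaling of the libraries mattered for the small differences. With library size alone the median over all tested genes moved to 0.13 (log2) in place of 0.04, and March5, March6, March7 and March8 then passed as higher (log2 fold changes from 0.14 to 0.21), while of all calls 38.7% were lower in place of 64.4%. March11 and March10 stayed lower under every scaling tried.

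The pattern of March11 over the 6 mice was shared by many genes. Pearson's r of log2 CPM (prior count 2) was above 0.99 for 261 of 16923 genes over points that share 2 genotypes and the same libraries. The 5 highest were Rnf40 (0.9994), Ttc23 (0.9989), Chrac1 (0.9989), Vps52 (0.9988) and Prss46 (0.9988). Rnf40 is itself a ubiquitin ligase, acting on histone H2B. Within the family March10 had r = 0.97 and March2 r = 0.89 with March11, and the other 7 were negative, from -0.78 (March8) to -0.27 (March9).

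The partners of these ligases were followed in 5 lists, to be read against the 20.2% of all tested genes that were lower and the 11.2% that were higher. Of 22 proteins that endosomal, Golgi and surface MARCH ligases bind or modify (the membrane cargo list), 8 were higher and 1 was lower (Ap1m1). The median log2 fold change was 0.24 (0.04 over all tested genes). Not every protein of this list is cargo, since Ap1m1 is a clathrin adaptor subunit. Among those that passed, the 3 largest changes were in MHC genes, the class II chains H2-Aa and H2-Ab1 and the class I chain H2-D1. The others that were higher are not MHC genes (Tfrc, Slc3a2, Dlg1, Ptprj and Alcam). Tfrc, the transferrin receptor, went from 121 ± 4.59 to 149 ± 2.52 CPM (log2 fold change 0.30 ± 0.05 SE). H2-Aa had 4.53, 5.17 and 4.08 CPM in WT and 20.9, 9.05 and 7.27 CPM in Trf2-/- mice, a log2 fold change of 1.45 ± 0.36 (SE, adjusted p = 0.0150 by edgeR's quasi-likelihood test). As for March1 the highest value was in Trf2-/- mouse 1, and without that mouse the log2 fold change was 0.82. The call was lost without WT mouse 1 (adjusted p = 0.0595 by the same test) or WT mouse 3 (0.0557). H2-D1 went from 28.9 ± 0.02 to 52.3 ± 27.0 CPM (log2 fold change 0.87 ± 0.28 SE), was 0.33 on the log2 scale without that mouse, and lost its call under 7 of 12 alternatives. H2-Ab1 went from 8.92 ± 0.58 to 15.9 ± 4.73 CPM (log2 fold change 0.84 ± 0.19 SE) and 0.56 on the log2 scale without that mouse. The macrophage sums given above were highest in that mouse too. In place of 8, the genes called higher numbered 3 when WT mouse 1 or WT mouse 3 was left out and 4 when WT mouse 2 was. Leaving out Trf2-/- mouse 1, 2 or 3 gave 5, 8 and 11.

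Of 9 mitochondrial shape and survival genes around March5, 4 were lower (Mfn2, Mff, Smcr7l and Fis1) and 1 higher, with a median log2 fold change of 0.00. Mfn2, the mitofusin that March5 ubiquitinates, had 174, 173 and 173 CPM in WT and 114, 125 and 97.3 CPM in Trf2-/- mice (log2 fold change -0.62 ± 0.08 SE, adjusted p = 0.000893 by edgeR's quasi-likelihood test). Of the receptors for the division GTPase Dnm1l, Mff was lower at 239 ± 1.18 and 182 ± 11.7 CPM and Smcr7l (Mief1) at 137 ± 1.73 and 104 ± 3.92 CPM, while Smcr7 (Mief2) had 15.7 ± 0.41 and 17.3 ± 1.25 CPM and did not pass. The second mitofusin, Mfn1, had 107 ± 6.49 and 109 ± 4.10 CPM and did not pass. Dnm1l was the gene that was higher (181 ± 3.46 and 204 ± 4.03 CPM), and 0 were higher without WT mouse 1, WT mouse 2 or Trf2-/- mouse 1.

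Of 20 genes of degradation from the endoplasmic reticulum, where March6 acts, 4 were lower, among them Trim13, Rnf139 and Nploc4, and 0 higher (0 at an unadjusted p under 0.05 and 0 by DESeq2), with a median log2 fold change of -0.08. The 4 lower genes are close to the share of lower genes among all tested genes (20.2%). Without WT mouse 1, 1 gene was higher. Of the 3 with the largest changes among those that passed, 2 are themselves ligases of that membrane. Trim13 had 43.7, 43.2 and 45.6 CPM in WT and 26.6, 27.0 and 23.8 CPM in Trf2-/- mice (log2 fold change -0.77 ± 0.07 SE), and Rnf139 (TRC8) went from 178 ± 5.26 to 122 ± 3.55 CPM (-0.54 ± 0.05 SE). Nploc4, a cofactor of the Vcp segregase, went from 242 ± 34.7 to 177 ± 5.45 CPM (-0.45 ± 0.09 SE). The March6 substrate Sqle had 81.0 ± 3.55 and 73.6 ± 0.21 CPM and did not pass (adjusted p = 0.0656 by edgeR's quasi-likelihood test).

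Of 24 tested E1 and E2 enzymes of the ubiquitin cascade, 2 were lower (Ube2j2 and Ube2j1) and 4 higher (Ube2l6, Ube2e3, Ube2g1 and Uba1), with a median log2 fold change of 0.00. Ube2j2, an E2 of the endoplasmic reticulum, had 81.7, 76.6 and 78.5 CPM in WT and 62.5, 64.1 and 62.8 CPM in Trf2-/- mice (log2 fold change -0.32 ± 0.05 SE). Ube2l6, an interferon-inducible E2 for ISG15, went from 4.28 ± 0.21 to 6.55 ± 0.39 CPM (0.61 ± 0.12 SE), and Ube2e3 from 82.2 ± 8.08 to 98.3 ± 5.86 CPM (0.25 ± 0.08 SE), a call lost without WT mouse 2, WT mouse 3 or any 1 of the Trf2-/- mice, and with the replicate block (adjusted p = 0.0724 by edgeR's quasi-likelihood test). Without WT mouse 2 or Trf2-/- mouse 1 the higher genes of this list numbered 2.

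Of 26 tested genes of endosomal sorting, the route by which ubiquitinated membrane proteins reach lysosomes, 10 were lower and 2 higher (Gga2 and Stam), with a median log2 fold change of -0.05. The higher genes numbered 0 without WT mouse 2 and 1 without WT mouse 1, WT mouse 3, Trf2-/- mouse 1 or Trf2-/- mouse 3. Gga1, a Golgi adaptor that recognises ubiquitin, had 69.8, 62.2 and 66.8 CPM in WT and 44.2, 45.5 and 43.3 CPM in Trf2-/- mice (log2 fold change -0.58 ± 0.06 SE, adjusted p = 0.000458 by edgeR's quasi-likelihood test). Chmp6, an ESCRT-III subunit, went from 63.4 ± 1.76 to 43.6 ± 3.60 CPM (-0.54 ± 0.07 SE), and the ubiquitin-binding adaptor Tom1 from 17.7 ± 1.10 to 12.4 ± 0.67 CPM (-0.51 ± 0.09 SE). These 3 were picked as the largest changes among the called genes, so the lack of overlap between their genotypes is a description. All WT values lay above all Trf2-/- values in 26.8% of tested genes. All 3 changes were smaller than that of March10 and of March11, which was itself chosen from this contrast.

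**Figure D4:**
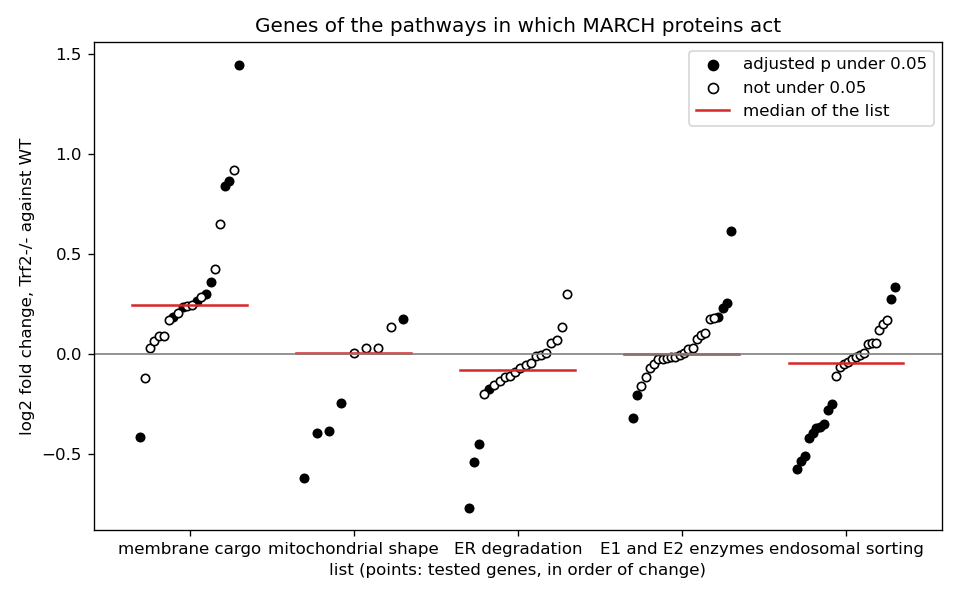
Log2 fold change in Trf2-/- against WT testis of the tested genes of 5 lists (membrane cargo 22, mitochondrial shape 9, endoplasmic reticulum degradation 20, E1 and E2 enzymes 24, endosomal sorting 26). Filled points have an adjusted p under 0.05 and red lines mark list medians, which run from -0.08 to 0.24.

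The markers of somatic cells and of spermatogonia that passed were mostly higher. Of 7 Sertoli cell markers 4 were higher (Amh, Cldn11, Clu and Fshr) and 0 lower (0 at an unadjusted p under 0.05 and 0 by DESeq2), and Clu, the most abundant, went from 1094 ± 62.9 to 1275 ± 84.4 CPM, a call lost without WT mouse 1, WT mouse 3 or Trf2-/- mouse 1. The other lists changed in 1 gene each, of 8 for spermatogonia, 6 for Leydig cells and 5 for peritubular cells. Each of these genes was higher (Kit, Hsd3b1 and Des). Over all tested genes 11.2% were higher, and 1 gene in lists this short is near that share. With DESeq2 the spermatogonia list had 0 higher genes. Their most abundant genes did not pass, with Uchl1 at 77.0 ± 4.84 and 82.0 ± 14.8 CPM, Cyp11a1 at 77.0 ± 24.6 and 74.0 ± 19.9 CPM and Acta2 at 167 ± 23.8 and 186 ± 9.92 CPM in WT and Trf2-/- testis.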

How the data were processed

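Total RNA of whole testes from 3 WT and 3 Trf2-/- mice, stated to be independent biological replicates, was made into stranded libraries depleted of ribosomal RNA and sequenced as single-end reads. The authors aligned to NCBIM37 (mm9) with TopHat and deposited raw counts per gene, 1 column per mouse. The submitters' processing notes name CASAVA 1.8.2, TopHat2 2.0.10, Bowtie2 2.1.0, HTSeq 0.5.4p3 and DESeq2 1.0.19, and no strand setting. The 12 deposited columns of normalized values were not used. Gene positions matched the GENCODE M1 annotation for 97.97% of genes and for all members.

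From the counts, 16924 genes passed filterByExpr (99.91% of counts) and were fitted with edgeR 4.0.16 in R 4.3.3 (TMM, glmQLFit, glmQLFTest, Benjamini-Hochberg over all tested genes, calls at an adjusted p under 0.05). The study's own tool, DESeq2 (1.42.0 here), served as an alternative. Standard errors come from the F statistic. Other settings were library size alone, DESeq2 size factors, no filter, a minimum of 10 counts per mouse, a replicate block, an adjusted p of 0.01, and each mouse left out. Members and lists were chosen with earlier results of these data known. Named genes are the members, Tbpl1, up to 3 called genes of each pathway list with the largest change, the 5 genes most correlated with March11, the most abundant gene of each marker list and overlapping genes. Taf6, Git1, Fbn2, Mfn1, Smcr7, Dnm1l, Sqle, Tfrc, Lyzl6, Catsper3 and the further genes listed behind small counts were named outside that rule after their values were seen. Some genes of the lists are not reported here by name. The fits were tested on simulated counts. Pairs of the same genotype differed by at least 3.32 times the sampling noise (chi-square per degree of freedom).

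Proteins were translated from GENCODE M1 coding sequences and aligned with Biopython 1.88 (BLOSUM62), and a hydrophobic stretch is a window of 19 residues with a mean Kyte-Doolittle value above 1.6.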

Additional observations from a re-analysis of the deposited data

How the results depend on the processing

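Of the 131 comparisons of a log2 fold change of the 10 members or March4 with an alternative, 117 kept their direction and side of the threshold. March11 and March10 kept theirs in all 12 alternatives each. With library size alone 4 members were higher, and leaving out single mice gave 0 to 1 higher and 2 to 3 lower, the 1 being March1 without Trf2-/- mouse 3. The sign of March9 (-0.022 to 0.058 over the mice left out) and of March3 (-0.037 to 0.077) reversed without WT mouse 1 or Trf2-/- mouse 1, and without Trf2-/- mouse 3. March2 lost its call with no filter on low counts (adjusted p = 0.0542 by edgeR's quasi-likelihood test).

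WT levels per kb with the exon union length were 48.9 (March11), 2.63 (March3), 13.6 (March8) and 26.0 (March5), and with library size alone 86.4 (March11), 70.7 (March10) and 7.59 (March3).

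Counts of higher genes in the lists moved most. With library size alone they were 14 for membrane cargo, 4 for degradation from the endoplasmic reticulum, 7 for E1 and E2 enzymes (1 lower) and 4 for endosomal sorting. At an adjusted p under 0.01 they were 3 for membrane cargo, 0 for the mitochondrial list, 2 for E1 and E2 enzymes and 0 for endosomal sorting. Leaving out mice gave ranges of 3 to 11, 0 to 1 (mitochondrial), 0 to 1 (endoplasmic reticulum), 2 to 4 and 0 to 2 in these lists, and the causes were not tested.

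The labels do not say how the mice were numbered. Deviations of same-numbered mice correlated at -0.10, -0.03 and -0.10, which shows no pairing by number but cannot exclude one. With the replicate block March2 (adjusted p = 0.0771), H2-D1 (0.0523), Ube2e3 (0.0724) and Hnrnpm (0.0804) were not called, and higher genes numbered 5 for membrane cargo and 1 for endosomal sorting. Among the further genes named, Cyp11a1 reversed to 0.049 with library size alone, and with mice left out the log2 fold changes took both signs in Uchl1 (-0.031 to 0.20), Cyp11a1 (-0.27 to 0.21), Mrc1 (-0.070 to 0.33) and Zbtb46 (-0.051 to 0.12). Hnrnpm lost its call under 7 of 12 alternatives. At 19 to 81 reads, counting error alone limits what can be said of March1.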
